A study of Mus musculus with 3 samples.

Results

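Blood neutrophils with Mmp8 transcripts were set against blood neutrophils without them, to read how far circulating neutrophils of untreated mice differ along their maturation genes. Cells were chosen by their raw UMI counts, a UMI being 1 counted RNA molecule. A neutrophil was a barcode with 200 or more genes, a summed count of 5 or more over Csf3r, Cxcr2, Mmp9 and Il1r2, at most 1 Csf1r UMI, at most 2 UMIs over Cd79a, Cd79b and Ms4a1, and at most 1 over Cd3e, Cd3d and Cd3g. Of 23870 barcodes in 3 libraries, 1966 met this rule: 1259 in replicate 1, 354 in replicate 2 and 353 in replicate 3. Among them 943 had 2 or more Mmp8 UMIs and 669 had none. Each positive cell was paired with a negative cell of the same library and a like UMI total, which gave 628 pairs (377, 115 and 136) and left 315 positive and 41 negative cells unpaired.

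The libraries are peripheral blood leukocytes of untreated male mice aged 8, 9 and 10 weeks, 1 library per age, taken after lysis of erythrocytes, stained with DAPI and Draq5, sorted, fixed and counted with gene probes on the 10x Genomics fixed-RNA platform. The study's title concerns splenic macrophages and repair after myocardial infarction, and no library here comes from an infarcted animal. The labels do not say that the libraries come from separate mice. With the library as a block, the p-values measure how steady the difference between arms was across these 3 samples, not across mice. No strain is given in the labels used here. Libraries 1 and 2 shared 83 barcodes, 1 and 3 shared 101, and 2 and 3 shared 48, and 1 barcode was a neutrophil in both libraries 1 and 2.

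Neutrophils are made in the bone marrow and fill their granules in a fixed order as they mature. Azurophil granule proteins such as myeloperoxidase come first, then specific granule proteins such as lactoferrin (Ltf), cathelicidin (Camp) and neutrophilic granule protein (Ngp), then gelatinase granule proteins such as Mmp9, and last the receptors of secretory vesicles. Mmp8 encodes the neutrophil collagenase, a metalloprotease stored in the granules, and its transcript belongs to late precursors and young neutrophils. Mature cells in blood carry on with few granule transcripts and with transcripts for chemoattractant receptors, cytokines and interferon responses.

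Mmp8 set the groups, so its values are given as a description only. Cells with 2 or more Mmp8 UMIs were 50.4% of neutrophils in replicate 1 (exact binomial 95% interval 47.6% to 53.2%), 45.5% in replicate 2 (40.2% to 50.8%) and 41.6% in replicate 3 (36.4% to 47.0%), with a mean of 45.9% ± 4.41 (SD, n = 3). Cells without Mmp8 were 36.9% ± 6.07 and cells with exactly 1 UMI, which joined neither arm, 17.2% ± 1.66. Intervals cover counting error only. All these shares are of the cells kept by the rule. Among 3548 barcodes with a sum of 5 or more over Csf3r, Cxcr2, Mmp9 and Il1r2, 1310 had over 1 Csf1r UMI. The rule left these out, though 886 of them had a sum of 20 or more, 734 with 2 or 3 Csf1r UMIs. At that sum 1887 cells were kept. By replicate, the kept cells held 3073 of 6103, 780 of 1542 and 649 of 1231 Mmp8 UMIs. The shares depend on depth: with each neutrophil thinned to 1000 UMIs, in the 1255, 341 and 345 cells deep enough, 18.7% ± 1.79 kept 2 or more Mmp8 UMIs and 56.1% ± 3.17 had none. B cells, which should lack the gene, held an Mmp8 UMI in 0.746%, 0.718% and 0.375% of cells at median depths of 3300, 3228.5 and 3098.5 UMIs, against neutrophil medians of 2810, 2671.5 and 2589. In the paired positive cells Mmp8 stood at 1461.5, 1348 and 1449 CPM (the gene's UMIs as a rate of the arm's summed UMIs, in the usual CPM scale). Just inside the limit, cells with exactly 2 UMIs had 679, 744 and 774 CPM of Mmp8, and just outside it, cells with exactly 1 had 369, 378 and 394.

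The promoter of Mmp8 is shown because this gene defines the arms. Of the 250 bases before its RefSeq start on chromosome 9 (GRCm38.p6, plus strand), the last 100 are printed from chr9:7558329-7558428, with the letters TTGCNNAA of a C/EBP core (the factors that drive granule genes) in capitals.
Mmp8: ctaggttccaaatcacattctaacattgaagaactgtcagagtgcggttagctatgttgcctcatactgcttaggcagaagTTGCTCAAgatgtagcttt
That core lies 19 to 12 bases before the start. In all, 9.56% of 32851 promoter stretches of 250 bases hold the core on either strand, and a match is a description of letters, not a bound site.

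The neutrophil label was checked on genes the rule did not use. A list of 11 neutrophil genes was used, among them S100a8, S100a9, Ly6g, Hdc and Il1b. It summed to 117007 to 143734 CPM in the positive arm and 85696 to 100892 CPM in the negative arm. In the B cells above, chosen with no UMI of Csf3r, Cxcr2, Mmp9 or Il1r2, it summed to 199.6 to 290.2 CPM. The low limit of 5 on the gate sum also let in other cells. In 34 neutrophils by the rule, all with a gate sum under 20, at least 2 UMIs fell on the basophil genes Cpa3, Mcpt8, Fcer1a, Gata2 and Prss34. All 34 were in the paired negative arm and none in the positive arm. Summed basophil genes stood at 492, 378 and 205 CPM in the negative arm against 0, 0 and 2.68 CPM in the positive arm. Summed monocyte genes stood at 356, 664 and 244 against 212, 220.3 and 193 CPM, and natural killer cell genes in replicate 1 at 498 against 308 CPM. Each comparison is therefore given at the rule's gate and again with a gate sum of 20 or more, a limit chosen after these values had been seen, which left 582 pairs (344, 108 and 130). At that gate the basophil genes summed to 2 UMIs in the negative arm and 1 in the positive arm, with Cpa3 and Prss34 at 0 in both, and the monocyte genes to 255, 196 and 243 CPM against 207, 228 and 188. Other differences in markers were still there: natural killer cell genes stood at 482 against 254 CPM in replicate 1, and eosinophil genes at 90.7, 144 and 128 CPM in the negative arm against 59.7, 45.6 and 101 in the positive arm, with Epx, Ear6 and Il5ra at 0 in both. The part of these cells in the results was not tested.

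Paired arms were close in depth but not equal. Median UMIs were 2701 against 2635 in replicate 1, 2649 against 2527 in replicate 2 and 2802.5 against 2447 in replicate 3, positive cells first. At 1000 UMIs per cell, positive cells held 609, 607 and 596 genes and negative cells 629, 635 and 616. Haemoglobin transcripts stood in positive and negative cells at 1214 against 271 CPM in replicate 1, 16196 against 13821 in replicate 2 and 5118 against 7534 in replicate 3. A single cell held 1103 of the 1288 haemoglobin UMIs in the positive arm of replicate 1. The doublet caller Scrublet marked 14, 2 and 0 neutrophils by replicate.

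With the rule's gate, 78 of 4451 genes tested were higher in Mmp8-positive neutrophils and 79 were lower (edgeR quasi-likelihood test with the library as a block, Benjamini-Hochberg adjusted p under 0.05), which is 1.75% and 1.77% of genes tested. With a gate sum of 20, 27 of 4270 genes were higher and 21 lower, 0.632% and 0.492%. The median log2 fold change over all genes tested was -0.01 at the rule's gate and -0.0031 at a gate sum of 20. Of all genes tested, the positive arm lay without overlap above the negative arm in 344 and below it in 300 at the rule's gate. At a gate sum of 20 these counts were 268 and 232, so arms were apart in more genes than were called. Scaling to plain totals instead of TMM (a scaling that trims extreme genes) gave 36 higher and 115 lower at the rule's gate, so that higher genes were 23.8% of calls in place of 49.7%. Of the genes higher at the rule's gate 23 were also called at a gate sum of 20, which is 29.5% of the first list and 85.2% of the second. Of the lower genes 13 were shared, 16.5% of the first list and 61.9% of the second. Replicate 1 holds most pairs, and without it 11 genes were higher and 15 lower at the rule's gate, and 9 and 2 at a gate sum of 20.

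**Figure D1:**
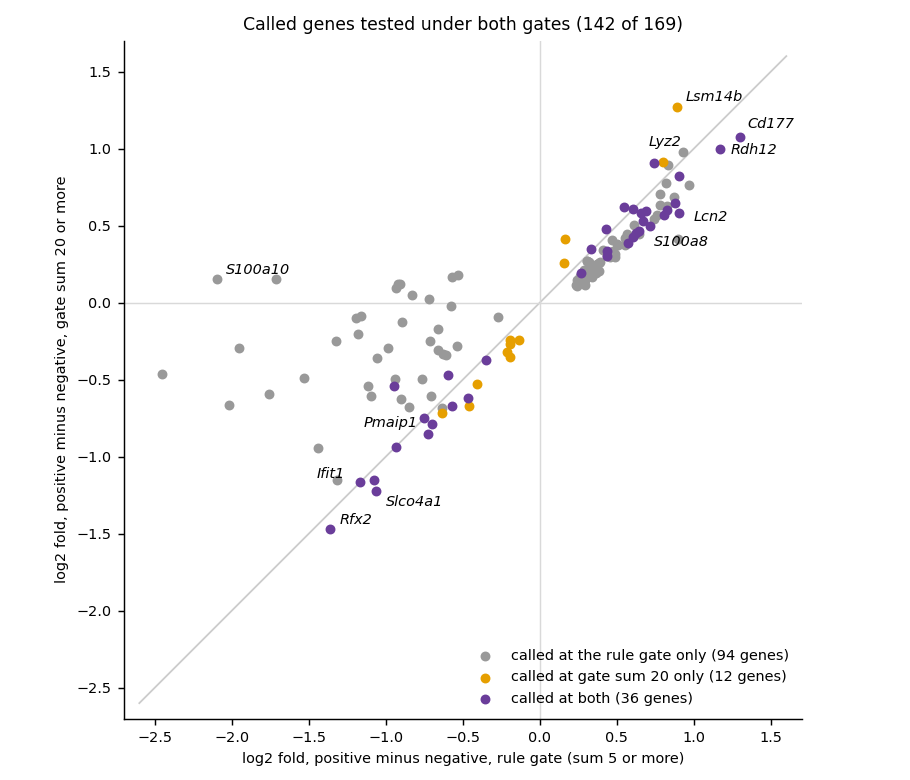
Each point is a gene called at either gate and tested at both, with its log2 fold change (Mmp8-positive minus Mmp8-negative) at the rule's gate on the x axis and at a gate sum of 20 or more on the y axis. Grey genes were called at the rule's gate only, orange at a gate sum of 20 only and purple at both; Lcn2 (0.90 and 0.58) and Cd177 (1.30 and 1.07) lie above 0 on both axes, and S100a10 goes from -2.10 on the x axis to 0.15 on the y axis.

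Some specific granule genes were higher in Mmp8-positive cells. Of 16 genes on the list 9 could be tested, 4 were higher at the rule's gate (1.75% of all genes tested) and 5 at a gate sum of 20 (0.632% of all genes), and none was lower. The median log2 fold change of the tested genes was 0.43 at both gates, and 2 of 9 had a negative sign at a gate sum of 20. Without replicate 1, 2 of 9 were called at that gate and 3 had a negative sign. Lcn2, the iron-scavenging lipocalin of specific granules, stood at 1429, 1558 and 1498 CPM in positive cells and 812, 767 and 801 in negative cells. The arms did not overlap, with a log2 fold change of 0.90 ± 0.08 (SE, n = 3, edgeR adjusted p = 1.48e-12), and at a gate sum of 20 it was 0.58 ± 0.07 (edgeR adjusted p = 4.28e-10). Without pairing on depth its call was lost (edgeR adjusted p = 0.285). That fit also takes in the cells left unpaired. Among its 161 positive cells of replicate 2 is 1 cell with 564 Lcn2 UMIs, and the part of this cell was not tested.

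Cd177, the surface receptor stored in specific granules, had a larger fold at a lower level. It stood at 131, 166 and 121 CPM in positive cells and 48.4, 73.0 and 56.2 in negative cells, without overlap. Its log2 fold change was 1.30 ± 0.19 (SE, n = 3, edgeR adjusted p = 1.83e-06), and 1.07 ± 0.20 at a gate sum of 20, but it was not called without replicate 1 (edgeR adjusted p = 0.0884 at the rule's gate and 0.461 at a gate sum of 20). Hp, which encodes haptoglobin, the binder of free haemoglobin, stood at 3488, 3434 and 4434 CPM against 2891, 3044 and 3239 at a gate sum of 20, a log2 fold change of 0.30 ± 0.05 (edgeR adjusted p = 6.54e-05). Wfdc21, a small secreted protein of the whey acidic protein family, stood at 815, 730.3 and 816 CPM against 634, 636 and 480.0, a log2 fold change of 0.43 ± 0.08 (edgeR adjusted p = 0.00036). Every positive sample was above every negative sample for both genes. Without replicate 1 neither was called at that gate (edgeR adjusted p = 0.163 for Hp and 0.14 for Wfdc21), and Wfdc21 was not called without replicate 3 (edgeR adjusted p = 0.136).

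Lyz2, the lysozyme of macrophages and neutrophils, depended on the gate. At the rule's gate its levels were 1828, 1412 and 1746 CPM in positive cells and 887, 1252 and 804 in negative cells, and it was not called (log2 fold change 0.80 ± 0.25, edgeR adjusted p = 0.385). With a gate sum of 20 the level of negative cells in replicate 2 was 797 in place of 1252, and the log2 fold change was 0.91 ± 0.07 (edgeR adjusted p = 4.2e-21), called also without each replicate in turn. Lyz1, a near-identical copy whose probes may not tell the copies apart, was called higher at the rule's gate (log2 fold change 0.93, edgeR adjusted p = 0.0453). That call was lost without replicate 1 or 2 (edgeR adjusted p = 0.693 and 0.0516). At a gate sum of 20 Lyz1 had a log2 fold change of 0.98 ± 0.32 and was not called (edgeR adjusted p = 0.137). Other granule genes did not pass: at a gate sum of 20 Slpi, a protease inhibitor, stood at 4523, 4246 and 5156 CPM against 4547, 4422 and 5785, and Cyba, a subunit of the NADPH oxidase, at 869, 798 and 961 against 812, 811 and 945. The values of both overlapped between arms.

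**Figure D2:**
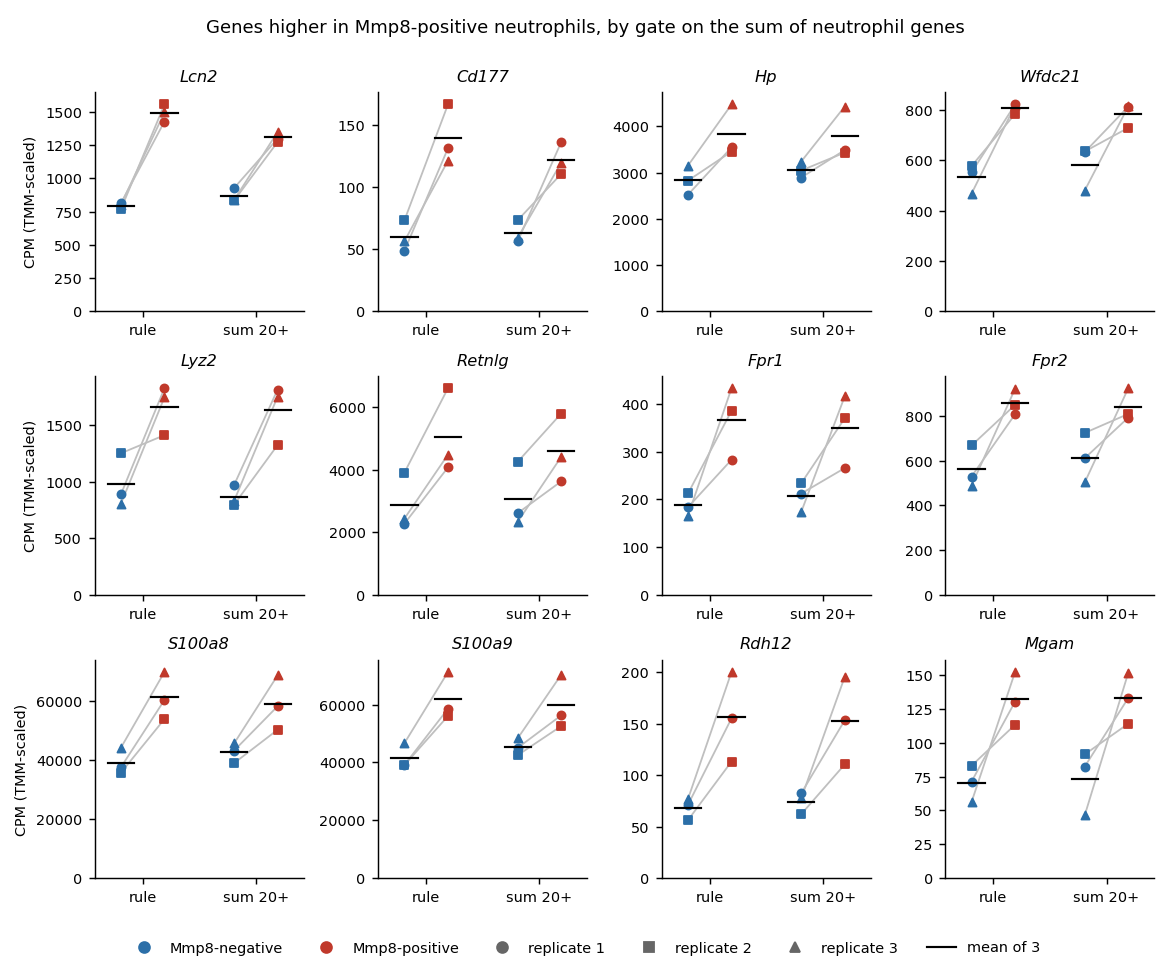
TMM-scaled CPM (y axis, from 0) of 12 genes in the summed Mmp8-negative (blue) and Mmp8-positive (red) neutrophils of each replicate, joined by a line, at the rule's gate (left pair) and a gate sum of 20 or more (right pair), with black bars for the mean of 3. In all 12 genes the positive sum of each replicate lies above its own negative sum at both gates.

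The early markers Camp, Ltf and Ngp were too sparse to be tested, and most of their UMIs came from a few cells. Positive and negative arms held 70 and 15 UMIs of Camp, 73 and 17 of Ltf and 219 and 19 of Ngp. In replicate 1, 2 of 377 positive cells held 86.7% of the 278 UMIs of these 3 genes, and in replicate 2, 1 of 115 cells held 69.3% of 75. Replicate 3 had 9 UMIs in the positive arm and 4 in the negative arm, and no negative cell of any replicate reached 10. Those 3 cells carried 37, 49 and 27 Mmp8 UMIs. In replicate 3, which had no such cell, Ngp was seen in 4.41% of positive and 2.21% of negative cells at median depths of 2802.5 and 2447 UMIs, against 1.32% of B cells at 3098.5. Camp was seen there in 1.47% of positive cells, in 0 of 136 negative cells and in 1.05% of B cells. The neutrophil shares above 0 rest on 2 to 6 cells.

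Over all 1966 neutrophils, 8 had 10 or more UMIs of Camp, Ltf and Ngp together. The highest, an unpaired cell of replicate 2 with 15381 UMIs, held 738 Camp, 483 Ltf, 863 Ngp and 564 Lcn2 UMIs with 12 of Mmp8 and only 4 of Retnlg. None of the 8 had a UMI of Mki67, Top2a, Elane or Mpo, genes of dividing cells and of azurophil granules. No gene of the azurophil list passed the count filter in either arm. Without the cells of 10 or more such UMIs, 75 genes were higher and 75 lower at the rule's gate.

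Retnlg, which encodes a resistin-like protein of neutrophils, was the clearest of the gelatinase granule and secretory vesicle list. It stood at 4076, 6613 and 4486 CPM in positive cells and 2275, 3911 and 2437 in negative cells. Its log2 fold change was 0.83 ± 0.06 (SE, n = 3, edgeR adjusted p = 1.11e-14) and 0.60 ± 0.06 at a gate sum of 20 (edgeR adjusted p = 7.52e-11), where positive cells of replicate 1 (3628) lay below negative cells of replicate 2 (4254). Replicate 2 was the highest of the 3 in both arms, and without the library as a block the call was lost (edgeR adjusted p = 0.617). Of 14 genes tested on this list, 4 were higher at the rule's gate (Retnlg, Fpr1, Mcemp1 and Adam8), against 1.75% of all genes tested. Over all genes 0.632% were higher and 0.492% lower at a gate sum of 20. At a gate sum of 20 Retnlg and Fpr1 were higher and Slc11a1, a metal transporter of phagosomes, was lower, at 365, 399 and 498 CPM against 523, 420.2 and 604 (edgeR adjusted p = 0.0336), which was lost with any 1 replicate left out (0.113 to 0.763).

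The promoters of Lcn2 and Retnlg are shown because these genes moved with Mmp8 and hold the same core, Lcn2 with the same 8 letters as Mmp8. Both are printed 5′ to 3′ up to the base before the RefSeq start (GRCm38.p6), Lcn2 from the minus strand at chr2:32387740-32387975 and Retnlg from the plus strand at chr16:48872358-48872607, where the core reads on the opposite strand. Capitals mark the C/EBP core.
Lcn2: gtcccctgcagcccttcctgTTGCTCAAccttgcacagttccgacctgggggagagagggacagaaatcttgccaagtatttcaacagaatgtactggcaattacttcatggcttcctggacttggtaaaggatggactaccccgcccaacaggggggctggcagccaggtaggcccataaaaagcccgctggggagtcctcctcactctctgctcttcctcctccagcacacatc
Retnlg: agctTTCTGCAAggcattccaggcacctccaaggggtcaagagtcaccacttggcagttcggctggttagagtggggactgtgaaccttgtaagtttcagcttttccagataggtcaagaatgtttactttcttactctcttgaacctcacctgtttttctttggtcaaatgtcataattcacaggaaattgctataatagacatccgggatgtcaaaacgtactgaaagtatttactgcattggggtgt
Of the 27 genes higher at a gate sum of 20, 23 matched a promoter by symbol and 4 of these held the core (Lcn2, Rdh12, Retnlg and S100a9), 17.4% against 10.8% of all 27025 genes with a promoter in the table. The PU.1 core GAGGAA, of the factor that sets the myeloid fate, was in 9 of the 23 (39.1%) against 25.9% of all genes.

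Receptors for formyl peptides, the bacterial peptides that draw neutrophils to infection, were higher in positive cells. Fpr1 stood at 283, 386 and 434 CPM in positive cells and 184, 212 and 166 in negative cells, with a log2 fold change of 0.88 ± 0.13 (SE, n = 3, edgeR adjusted p = 1.97e-06). Fpr2 stood at 807, 849 and 921 CPM against 528, 667 and 488, with a log2 fold change of 0.62 ± 0.09 (edgeR adjusted p = 2.25e-06). Neither overlapped between arms, and both were called at a gate sum of 20, at 0.65 ± 0.13 and 0.45 ± 0.09. There the calls were lost on leaving out 1 library: Fpr1 without replicate 2 or 3 (edgeR adjusted p = 0.127 and 0.262), Fpr2 without replicate 1 or 3 (0.104 and 0.146). The other tested chemoattractant receptors did not pass at a gate sum of 20, 10 having been tested. Over all genes 0.632% were higher at that gate.

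S100a8 and S100a9, the subunits of calprotectin, which holds calcium and starves microbes of metals, were the most abundant genes that differed. S100a8 stood at 60458, 53989 and 69946 CPM in positive cells and 37636, 35804 and 44268 in negative cells. Its log2 fold change was 0.65 ± 0.04 (SE, n = 3, edgeR adjusted p = 3.22e-17) and 0.46 ± 0.04 at a gate sum of 20 (edgeR adjusted p = 4.77e-15). S100a9 stood at 58554, 56047 and 71236 CPM against 39137, 39137 and 46681, a log2 fold change of 0.57 ± 0.04, and 0.39 ± 0.04 at a gate sum of 20 (edgeR adjusted p = 1.25e-15 and 5.41e-11). For both genes the arms stayed apart at both gates and the call was kept without each replicate. Of the cells with a gate sum of 20 or more, 12 negative and 2 positive had fewer than 10 UMIs of the S100 pair, and the part of these cells in the difference was not tested.

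Calls of S100a6, S100a11 and S100a10 differed between the gates, and S100a13 was called at neither. S100a6 and S100a11 were higher at the rule's gate (log2 fold changes of 0.34 and 0.24, edgeR adjusted p = 0.00165 and 0.00419) and did not pass at a gate sum of 20 (0.16 and 0.11, edgeR adjusted p = 0.268 and 0.445). S100a10, an annexin partner, was lower at the rule's gate at 62.2, 30.0 and 22.5 CPM against 301, 86.3 and 65.1, a log2 fold change of -2.10 ± 0.19 (edgeR adjusted p = 8.6e-12). Without replicate 1 none of these 3 was called at the rule's gate (edgeR adjusted p = 0.309, 0.273 and 0.111 for S100a6, S100a11 and S100a10), nor was S100a11 without replicate 3 (0.0639). With a gate sum of 20 S100a10 stood at 52.1, 32.1 and 23.3 CPM against 63.4, 7.31 and 6.19, and the sign turned to 0.15 ± 0.31 (edgeR adjusted p = 0.949).

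Rdh12, Mgam, Tkt and Apoe, named for their place among all genes tested, were higher in positive cells at both gates. Rdh12, a retinol dehydrogenase, stood at 153, 110.4 and 195 CPM against 82.4, 62.1 and 77.4 at a gate sum of 20, a log2 fold change of 1.00 ± 0.18 (edgeR adjusted p = 5.48e-05). Mgam, an alpha-glucosidase, stood at 133, 114 and 151 CPM against 82.4, 91.4 and 46.5, with a log2 fold change of 0.82 ± 0.19 (edgeR adjusted p = 0.00473). Tkt, the transketolase of the pentose phosphate pathway, stood at 353, 349 and 358 CPM against 247, 223 and 217, with a log2 fold change of 0.59 ± 0.12 (edgeR adjusted p = 0.00036). In all 3 genes the arms did not overlap, and without replicate 1 none was called (edgeR adjusted p = 0.0791, 0.263 and 0.0932), nor was Mgam without replicate 2 or 3 (0.0603 and 0.386). Apoe, the lipid carrier, had a log2 fold change of 0.61 ± 0.11 (edgeR adjusted p = 5.83e-05) with levels of 403, 623 and 297 CPM against 286, 373 and 179.6. Its positive sum was above its negative sum in each library, though the arms overlapped between libraries, and it was not called without replicate 2 (edgeR adjusted p = 0.0551).

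Among the lower genes at the rule's gate, the 12 with the lowest fold change were Cd200r3, Cyp11a1, Fcer1a, Cdh1, C3ar1, Mcpt8, Slc7a8, Gata2, Ms4a2, Padi2, Ccl9 and Cd7. Fcer1a and Ms4a2 are chains of the IgE receptor of basophils and mast cells, and Mcpt8 is a basophil protease. These 12 genes held 66 UMIs in the positive arm and 2793 in the negative arm (2215, 343 and 235 by replicate). They held 52 and 33 UMIs at a gate sum of 20. Fcer1a had 0 and 214 UMIs at the rule's gate and 0 and 1 at a gate sum of 20, Mcpt8 0 and 116 and then 0 and 1. Of the 79 lower genes, 27 had too few counts to be tested at a gate sum of 20. Cebpa, a granulocyte transcription factor, followed the same course, from a log2 fold change of -1.76 (edgeR adjusted p = 7.23e-10) to -0.60 (edgeR adjusted p = 0.307).

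Genes lower in Mmp8-positive cells at both gates were fewer, and Pmaip1 was one of them. Pmaip1 encodes NOXA, which binds and neutralises the survival protein MCL1. At a gate sum of 20 it stood at 152, 189 and 146 CPM in positive cells and 222, 329 and 341 in negative cells, without overlap. Its log2 fold change was -0.78 ± 0.13 (SE, n = 3, edgeR adjusted p = 3.13e-05), and it was the only lower gene of 21 that was called without each replicate in turn at that gate. The DESeq2 Wald test called none of the genes there as lower, Pmaip1 and the interferon genes among them (0 lower and 5 higher, with 57 at an unadjusted p under 0.05). At the rule's gate it was not called without replicate 3 (edgeR adjusted p = 0.057). Slco4a1, an organic anion transporter, stood at 42.5, 46.3 and 29.1 CPM against 89.8, 58.5 and 136, a log2 fold change of -1.22 ± 0.24 (edgeR adjusted p = 0.000309). It too did not overlap, and its call was lost without replicate 1 or 3 (edgeR adjusted p = 0.133 and 0.143).

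Nr4a1, an immediate-early nuclear receptor, stood at 134, 60.6 and 64.1 CPM against 206, 124 and 127, lower in each library though the arms overlapped. Its log2 fold change was -0.75 ± 0.17 (edgeR adjusted p = 0.00286), lost without replicate 1 or 2 (0.18 and 0.079). Nr4a1 was the only call of 12 immediate-early genes tested at a gate sum of 20, where 0.492% of all genes were lower. The list's median log2 fold change was -0.0098, with 7 negative and 5 positive signs. At the rule's gate Dusp1 of the same list was higher (log2 fold change 0.24, edgeR adjusted p = 0.0312). Rfx2, a transcription factor, had the lowest log2 fold change of genes at 20 CPM or more, -1.47 ± 0.32 (edgeR adjusted p = 0.002), from levels of 14.9, 42.7 and 14.6 CPM against 61.2, 65.8 and 37.2. It was not called without replicate 1 (edgeR adjusted p = 0.673).

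Genes of late blood neutrophils, a list with Il1b and Ccl6, went both ways. Of 16 tested, 3 were lower at a gate sum of 20 (Gm2a, Ifitm2 and Fgl2) and Ccl6 was higher, against 0.492% lower and 0.632% higher of all genes tested. The sign was negative in 11 of 16, and the list's median log2 fold change was -0.03. Gm2a, the GM2 ganglioside activator of lysosomes, stood at 1299, 1507 and 1360.4 CPM in positive cells and 1619, 1732 and 2053 in negative cells, a log2 fold change of -0.37 ± 0.07 (SE, n = 3, edgeR adjusted p = 5.48e-05). It did not overlap, and it was not called without replicate 1 (edgeR adjusted p = 0.088). Ifitm2, an interferon-induced membrane protein, stood at 2194, 1892 and 2636 CPM against 2754, 2547 and 3081, a log2 fold change of -0.32 ± 0.06 with the same adjusted p in edgeR, called without replicate 3 but not without replicate 1 or 2 (edgeR adjusted p = 0.16 and 0.0985). Ccl6 and Fgl2 were not called with any 1 replicate left out, with edgeR adjusted p from 0.196 to 0.338 and from 0.161 to 0.309. Il1b, the interleukin 1 beta gene, stood at 4258, 4559.6 and 3906 CPM against 4787, 4597 and 4549 and did not pass (edgeR adjusted p = 0.258).

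Interferon-stimulated genes, which cells switch on through the interferon receptors against viruses, leaned to Mmp8-negative cells. Of 24 tested, 5 were lower and none higher at each gate. Over all genes tested 1.77% were lower at the rule's gate and 0.492% at a gate sum of 20. At the latter gate the sign was negative in 23 of 24 interferon genes. Their median log2 fold change was -0.36, against -0.0031 over all genes tested. Ifih1 (the RNA sensor MDA5), Oasl2, Ifit3 and Ifit1 were called at both gates, Isg15 at the rule's gate only and Slfn5 at a gate sum of 20 only. Oasl2 stood at 291, 570.0 and 251 CPM in positive cells and 465, 716 and 474 in negative cells at a gate sum of 20, with a log2 fold change of -0.62 ± 0.10 (SE, n = 3, edgeR adjusted p = 5.86e-06). Each library was lower in its positive arm, and replicate 2 was the highest in both arms, so the arms overlapped between libraries.

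Of the interferon genes called at a gate sum of 20 Ifih1 alone did not overlap between arms, at 22.3, 32.1 and 32.0 CPM against 56.0, 65.8 and 61.9, from 41 and 91 UMIs. Its log2 fold change was -1.15 ± 0.29 (edgeR adjusted p = 0.0131). Ifit1, which binds viral RNA caps, stood at 11.7, 81.9 and 8.74 CPM against 31.7, 157 and 24.8, a log2 fold change of -1.16 ± 0.31 (edgeR adjusted p = 0.0282), and Ifit3 at 23.4, 110.4 and 26.2 against 73.9, 157 and 21.7. Leaving out 1 replicate at that gate gave edgeR adjusted p of 0.49, 0.163 and 0.04 for Ifih1 and 0.407, 0.391 and 0.0573 for Ifit1 (without replicate 1, 2 and 3). Ifit3 was not lower in replicate 3, and Slfn5 not in replicate 2 (246 against 212 CPM). The calls in this group depended on replicate 1, and without it none of 24 was called at either gate. Calls over all genes also fell without it, to 11 higher and 15 lower at the rule's gate and 9 and 2 at a gate sum of 20. The group's median without it was -0.24 at the rule's gate and -0.23 at a gate sum of 20, with 19 of 24 below 0 at each. Without replicate 2 the median at a gate sum of 20 was -0.49 and without replicate 3 it was -0.45, with 3 lower genes each time.

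**Figure D3:**
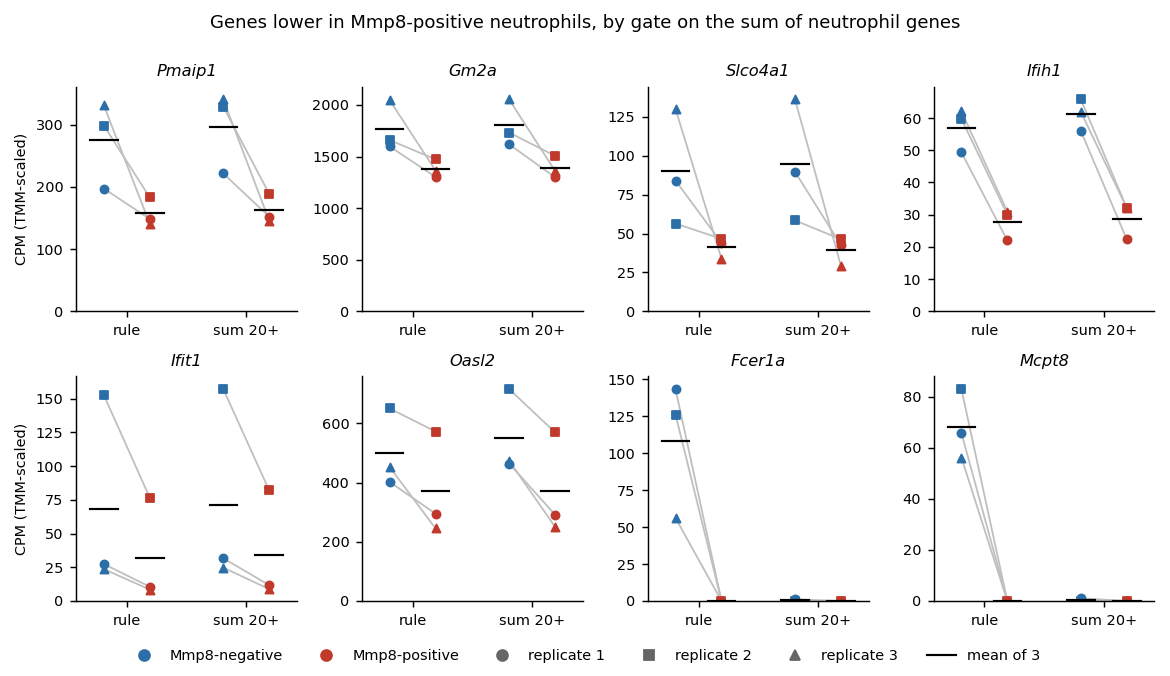
TMM-scaled CPM (y axis, from 0) of 8 genes in Mmp8-negative (blue) and Mmp8-positive (red) neutrophils of each replicate, at the rule's gate (left pair) and a gate sum of 20 or more (right pair), with black bars for the mean of 3. Pmaip1, Gm2a, Slco4a1 and Ifih1 are apart at both gates, replicate 2 is highest for Ifit1 and Oasl2, and the basophil genes Fcer1a and Mcpt8 fall to about 0 in the negative arm at a gate sum of 20.

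The promoters of Ifit1 and Ifit3 are shown because they carry the letters GAAANNGAA of the interferon response element, here read on the opposite strand and marked in capitals. Both lie on the plus strand of chromosome 19 (GRCm38.p6), at chr19:34640760-34640888 and chr19:34583354-34583528, and end at the base before the RefSeq start.
Ifit1: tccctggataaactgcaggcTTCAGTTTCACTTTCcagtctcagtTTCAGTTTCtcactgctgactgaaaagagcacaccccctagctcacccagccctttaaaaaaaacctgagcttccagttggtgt
Ifit3: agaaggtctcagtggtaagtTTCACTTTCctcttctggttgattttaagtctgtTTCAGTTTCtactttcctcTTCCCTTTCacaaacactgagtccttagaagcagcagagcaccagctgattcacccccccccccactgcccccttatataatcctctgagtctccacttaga
Each holds 3 matches, and the first pair of matches in Ifit1 overlaps. Of 21 genes lower at a gate sum of 20, 17 matched a promoter and 5 of these held the element (Ifih1, Ifit1, Ifit3, Ifitm2 and Slfn5), 29.4% against 8.18% of all genes. On the whole interferon list 14 of 26 matched genes held it.

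**Figure D4:**
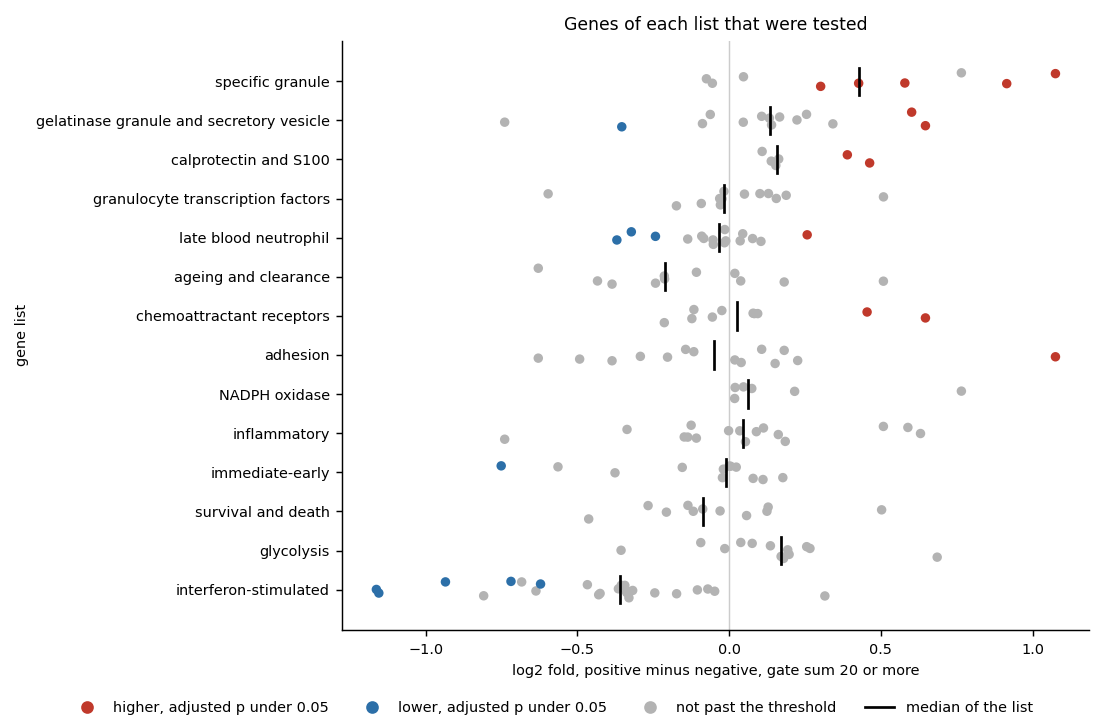
Log2 fold change (x axis, Mmp8-positive minus Mmp8-negative, gate sum of 20 or more) of each tested gene of 14 lists, red where higher and blue where lower at an adjusted p under 0.05, with the list's median as a black bar. The specific granule list lies to the right with a median of 0.43, and the interferon-stimulated list to the left with a median of -0.36.

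Other programmes gave few calls, where 0.632% of all genes tested were higher and 0.492% lower at a gate sum of 20. At a gate sum of 20 no gene passed among 13 granulocyte transcription factors, 6 NADPH oxidase subunits and 16 inflammatory genes. None passed among 11 genes of ageing and clearance, 11 of survival and death, 15 of the cytoskeleton, 13 of glycolysis and 9 of translation. Pmaip1, which was lower at that gate, was not on the list of survival and death genes. Cebpe, the factor of the specific granule stage, stood at 108, 57.0 and 75.7 CPM against 70.7, 58.5 and 49.5 (log2 fold change 0.51 ± 0.21, edgeR adjusted p = 0.34), and Spi1, which encodes PU.1, at 1283, 1357 and 1282 against 1315, 1294 and 1344. The arms overlapped for both.

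Cxcr4, the marrow-homing receptor that ageing blood neutrophils gain, did not differ beyond the threshold at a gate sum of 20. It stood at 1024, 1193 and 667 CPM against 1129.8, 1316 and 904, a log2 fold change of -0.21 ± 0.07 (edgeR adjusted p = 0.151). Adhesion genes other than Cd177 followed the gate, with 3 higher and 4 lower of 16 tested at the rule's gate and Cd177 alone of 14 at a gate sum of 20. Over all genes tested the higher and lower shares were 1.75% and 1.77% at the rule's gate. They were 0.632% and 0.492% at a gate sum of 20. Slc2a3 and Pgk1 of glycolysis, Fas and Tnfrsf1a of cell death, and Tlr2 and Clec4d of the inflammatory list were higher at the rule's gate only.

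The genes that chose the cells are given without a test. At a gate sum of 20 Csf3r, the receptor for granulocyte colony-stimulating factor, stood at 11504, 11987 and 12891 CPM in positive cells and 12806, 13079 and 13908 in negative cells. Cxcr2, the chemokine receptor that releases neutrophils from marrow, stood at 2749, 3227 and 3350.1 against 2729, 3121 and 3115, and Mmp9, the gelatinase, at 4637, 4139 and 4550.3 against 4122, 4180.5 and 4571.

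Along the count of Mmp8 UMIs some of the same genes changed by steps and others unevenly, given as a description since the axis is the chosen gene. Over all neutrophils with 0, 1, 2 to 3, and 4 or more Mmp8 UMIs, S100a8 stood at 39751, 50568, 59154 and 68676 CPM in replicate 1, and rose at each step in replicate 3 as well. In replicate 2 it was 54902 at 1 UMI and 54159 at 2 to 3. Retnlg in replicate 2 fell from 7384 CPM at 2 to 3 UMIs to 6762 at 4 or more. Cd177 in replicate 3 fell from 132 to 106 CPM over the same step, and in replicate 2 from 77.3 at 0 to 49.6 at 1 UMI. Between 0 and 1 UMI Lcn2 in replicate 2 went from 747 to 713 CPM. Lcn2 stood at 855, 1036, 1306 and 1775 CPM in replicate 1 and reached 4631 CPM in replicate 2 at 4 or more UMIs, the class that holds the cell with 564 Lcn2 UMIs. Gm2a went from 1683 to 1559, 1383 and 1068 CPM in replicate 1 and ended at 1104 and 1010 in the others. Pmaip1 went from 210, 319 and 341 CPM without Mmp8 to 119.5, 85.9 and 119.9 at 4 or more. Median UMIs per cell also went up along this axis, from 2620.5 to 3084.5 in replicate 1, 2458 to 3112 in replicate 2 and 2395 to 3036 in replicate 3, and their part in these steps was not tested.

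**Figure D5:**
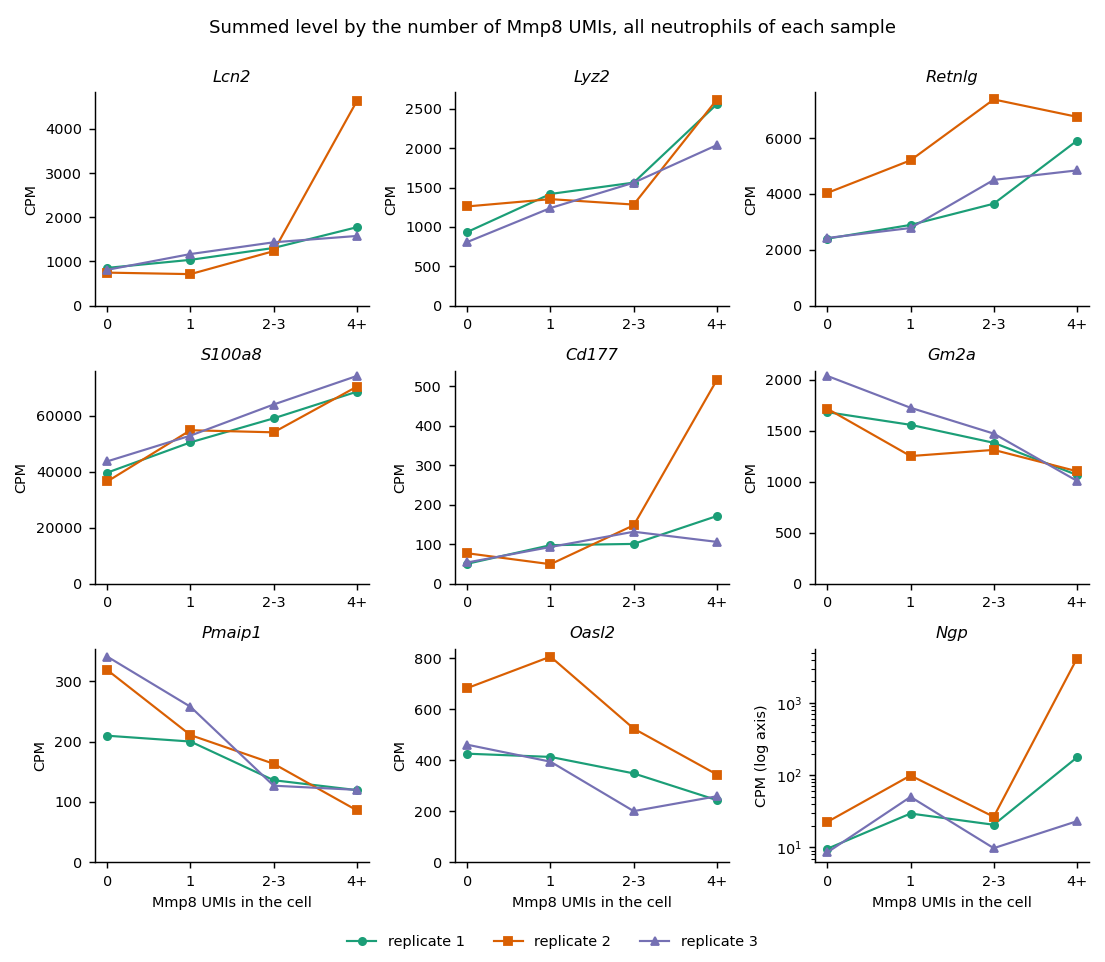
Summed CPM (y axis, log scale for Ngp only) of 9 genes in all neutrophils of each replicate (lines), by the number of Mmp8 UMIs in the cell (x axis). S100a8, Lyz2 and Lcn2 are highest and Gm2a and Pmaip1 lowest at 4 or more UMIs in each replicate, and Lcn2, Cd177 and Ngp jump in replicate 2 where a single cell holds 863 Ngp UMIs.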

How the data were processed

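Raw UMI counts per gene and barcode were used as the authors deposited them for 3 libraries (45718031, 19591648 and 23443660 UMIs; 11105, 5736 and 7029 barcodes; 19059 genes), and per the file headers came from Cell Ranger 7.1.0. Which genome build and probe set it ran with is not stated in the labels or headers used. The members, gene lists and the rule for named genes were chosen with earlier results of these data known. Named genes were Retnlg, Camp, Ltf and Ngp, for each list the 3 highest and 3 lowest changes past the threshold that went the same way in all 3 samples at 10 CPM or more, and over all genes the 12 highest and 12 lowest at 20 CPM or more; list members outside it carry values.

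Positive and negative cells were paired 1 to 1 on total UMI within a ratio of 1.2, inside each library, and their counts summed per library and arm. Mmp8 and the genes that chose the cells were left out of the tests. The sums were tested in edgeR 4.0.16 (R 4.3.3), with a low-count filter, TMM scaling, a robust quasi-likelihood fit and the library as a block, since both arms come from the same library; p-values were adjusted by Benjamini-Hochberg with a threshold of 0.05. The SE is the log2 fold change over the square root of its F. CPM levels by arm were scaled by TMM, except marker sums, Mmp8 and levels by Mmp8 count, which are plain. The fit was tested on simulated counts. DESeq2 1.42.0, other scalings, filters, gates and pairings, and leaving out each replicate were alternatives. Doublets were called with Scrublet in scanpy 1.11.5 and kept. Neutrophil medians of 2589 to 2810 UMIs per cell leave genes under about 10 CPM with few counts per arm. Promoter sequences are from RefSeq (GRCm38.p6), matched by symbol.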

Additional observations from a re-analysis of the deposited data

How the results depend on the processing

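At the rule's gate, against 78 higher and 79 lower genes, plain library totals gave 36 higher, the DESeq2 Wald test 17 and 20, no low-count filter 121 and 179 of 11040 tested, and no replicate block 19 and 26. No pairing on depth gave 180 and 127, a gate sum of 10 or more 31 and 23, and thinning to 1000 UMIs 18 and 14 of 2421 tested. Leaving out 1 replicate gave 11 to 92 higher and 15 to 126 lower, the lowest counts without replicate 1. Chosen after seeing the data, a gate sum of 20 or more gave 27 and 21, and with Csf1r at 3 or less 41 and 42. At a gate sum of 20 the DESeq2 Wald test called 5 higher and 0 lower, with 57 genes at an unadjusted p under 0.05, against 409 in edgeR. S100a10 reversed from -2.10 to 0.15 at a gate sum of 20 and 0.28 with Csf1r at 3 or less. Of 53 genes called and followed, 17 kept their call with no replicate block and 21 with DESeq2; of 50 testable without replicate 1, 16 did. Thinned to 1000 UMIs, the share of neutrophils with no Mmp8 UMI was 56.1%, with 1 UMI 25.3% and with 2 or more 18.7%. The cause of these shifts was not tested. Depth limits the sparse genes Camp, Ltf and Ngp, which could not be tested.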
